A study of Mus musculus with 20 samples.

Results

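Globin, red cell membrane and heme synthesis transcripts were examined in heart and femur muscle of tafazzin knockdown mice. The 9 genes were taken by name as the rows whose Ensembl ID carries the symbol Hba-a1, Hbb-bs, Hbb-bt, Slc4a1, Alas1, Alas2, Urod, Ppox or Fech in GENCODE M21 (GRCm38). All 9 were found among the 47069 genes counted in heart and the 53801 genes counted in muscle. The comparison asked how transcripts that come mainly with red cells, and the heme synthesis transcripts that every tissue makes, differed between genotypes in each tissue.

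RNA was sequenced from 5 Taz-KD and 5 WT hearts and from 5 Taz-KD and 5 WT femur muscles, with 1 library per sample code. The codes in the sample titles are taken here as animal numbers, and none is shared between tissues. Taz-KD mice carry ROSA26H1/tetO-shRNA:TAZ, a hairpin RNA against Taz in the whole body that doxycycline switches on, and WT mice are C57BL/6N. Mice of both genotypes were 20 weeks old and ate chow with 625 mg/kg doxycycline, so that the drug does not separate them. Taz encodes tafazzin, the mitochondrial enzyme that remodels cardiolipin. Frozen tissue was extracted, and the sources do not say that blood was removed before freezing.

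Heme is an iron-containing ring that carries oxygen in hemoglobin and myoglobin and electrons in the respiratory chain. Its synthesis starts in mitochondria with 5-aminolevulinate synthase, passes through cytosolic enzymes, and ends in mitochondria, where ferrochelatase inserts the iron. Alas1 encodes the first enzyme in tissues generally and Alas2 encodes its counterpart in developing red cells. Adult hemoglobin joins alpha chains (Hba-a1, Hba-a2) with beta chains (Hbb-bs, Hbb-bt). Slc4a1 encodes band 3, the anion exchanger of the red cell membrane. Circulating red cells have no nucleus, and young red cells still carry globin mRNA.

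The 5′ flanking sequences are shown because the globin genes and Alas2 had lower means in Taz-KD hearts together, while the mean of Alas1 was nearly level. Each line gives the 110 bases before the transcription start in RefSeq (GRCm38.p6), read along the gene. Capitals mark 4 motifs searched on either strand: the box written CACCC, the box written CCAAT, the word of GATA factors written GATAA and the TATA box written ATATAA. The positions are chr11:32283562-32283671 on the plus strand for Hba-a1, chr7:103827929-103828038 on the minus strand for Hbb-bs and chr7:103813924-103814033 on the minus strand for Hbb-bt. Those of Alas2 are chrX:150547307-150547416 on the plus strand, and those of Alas1 are chr9:106247955-106248064 on the minus strand, the RefSeq start nearest to the GENCODE 5′ end. GENCODE places the first base of all 5 genes farther upstream than these starts.
Hba-a1: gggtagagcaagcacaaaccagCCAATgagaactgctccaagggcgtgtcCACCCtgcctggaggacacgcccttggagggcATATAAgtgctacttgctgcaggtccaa
Hbb-bs: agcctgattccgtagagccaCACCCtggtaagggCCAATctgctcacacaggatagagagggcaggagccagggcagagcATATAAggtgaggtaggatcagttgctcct
Hbb-bt: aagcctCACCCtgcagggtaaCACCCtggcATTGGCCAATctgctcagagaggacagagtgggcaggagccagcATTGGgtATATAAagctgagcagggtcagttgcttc
Alas2: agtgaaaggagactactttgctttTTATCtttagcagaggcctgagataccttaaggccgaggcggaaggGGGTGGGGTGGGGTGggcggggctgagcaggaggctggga
Alas1: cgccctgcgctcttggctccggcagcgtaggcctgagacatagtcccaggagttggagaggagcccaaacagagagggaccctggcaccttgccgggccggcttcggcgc
The 3 globin windows each held the first, the second and the fourth of these. The Alas2 window held CACCC 3 times, on the other strand and next to each other, and GATAA once, and the Alas1 window held none of the 4 motifs. Among 32851 promoter windows of this length, CACCC was found in 29.6%, CCAAT in 20.2%, GATAA in 9.4% and ATATAA in 4.1%. Such matches are short words and say nothing on binding in these tissues.

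The globin copies share most of their sequence, which limits how reads are assigned. The coding sequences of Hba-a1 and Hba-a2, 429 bases each, differed at 1 position, and those of Hbb-bs and Hbb-bt, 444 bases each, differed at 1 position. The end of the beta globin coding sequence, bases 385 to 444 counted from the start codon in GENCODE, is shown with the differing base 417 in capitals.
Hbb-bs: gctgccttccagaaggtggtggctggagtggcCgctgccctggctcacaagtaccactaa
Hbb-bt: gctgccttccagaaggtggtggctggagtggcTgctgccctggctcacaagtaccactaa
Of the 150-base windows of the Hba-a1 transcript, 48.4% also occurred in Hba-a2, and of those of Hbb-bs, 58.7% occurred in Hbb-bt. The values of each copy are therefore uncertain, and the sum of the copies is given where it matters.

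Levels are given as counts scaled to a common library total (CPM), with TMM factors between the libraries of a tissue. Heart libraries held 26963288 to 35301909 counts and muscle libraries 36429399 to 74361382. Taz measured 11.7 ± 0.73 CPM in Taz-KD hearts and 37.8 ± 1.4 CPM in WT hearts, and 13.4 ± 1.05 CPM in Taz-KD muscle and 51.7 ± 3.42 CPM in WT muscle (SD, n = 5 each). Its log2 fold change was −1.70 ± 0.06 (SE) in heart (edgeR adjusted p = 4.08e-09) and −1.95 ± 0.08 in muscle (edgeR adjusted p = 1.86e-06). The cardiac markers Myh6, Tnnt2, Tnni3, Myl2 and Actc1 summed to 33820 to 46800 CPM in Taz-KD hearts and 34000 to 47230 CPM in WT hearts, and none of the 5 passed the test. Of the skeletal muscle markers, Acta1 rose in heart (1.82 on the log2 scale, edgeR adjusted p = 0.0464), while Ckm, the most abundant, did not pass. With 1 heart left out, Acta1 still passed only without R1791 or R1792 (otherwise edgeR adjusted p = 0.0607 to 0.104). Among the muscles, WT A33 stood apart with 266.4 CPM of B cell markers, against at most 1.15 CPM in the other WT muscles and 0.766 CPM in Taz-KD muscle. WT muscle A55 stood apart with 3400 CPM of these cardiac markers, against at most 1353 CPM in the other 4 WT muscles and 957.7 CPM in Taz-KD muscles. Nearly all of it was Myl2 (3341 CPM), while Tnnt2 had at most 5.31 CPM and Tnni3 at most 2.2 CPM in any WT muscle. Myh6 had at most 30.1 CPM in any WT muscle and at most 7.85 CPM in any Taz-KD muscle. Whether A55 held cardiac tissue was not tested. Hearts R2 (Taz-KD) and R3 (WT) carry sample codes of another series than the other 8. Rn7sk, an RNA with no poly(A) tail, measured 7989 to 11240 CPM in heart and 0.0197 to 0.492 CPM in muscle. Levels set side by side across tissues therefore come from libraries that differ in this respect, from tables scaled separately.

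In heart, Hbb-bs, Alas2, Slc4a1 and Fech transcripts were less abundant in Taz-KD than in WT. Hba-a1 and Hbb-bt had lower means in Taz-KD without passing the test, and Alas1, Urod and Ppox did not pass it either. Of the 9 genes, 4 fell (Hbb-bs, Slc4a1, Alas2 and Fech) and 0 rose at an edgeR adjusted p under 0.05. Over the 19486 genes tested in heart, 24.6% passed, with 10.3% lower and 14.4% higher in Taz-KD. The median log2 fold change of the 9 genes was −0.59, beside −0.02 over all tested genes. In whole tissue, fewer red cells and less RNA per cell cannot be told apart.

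**Figure D1:**
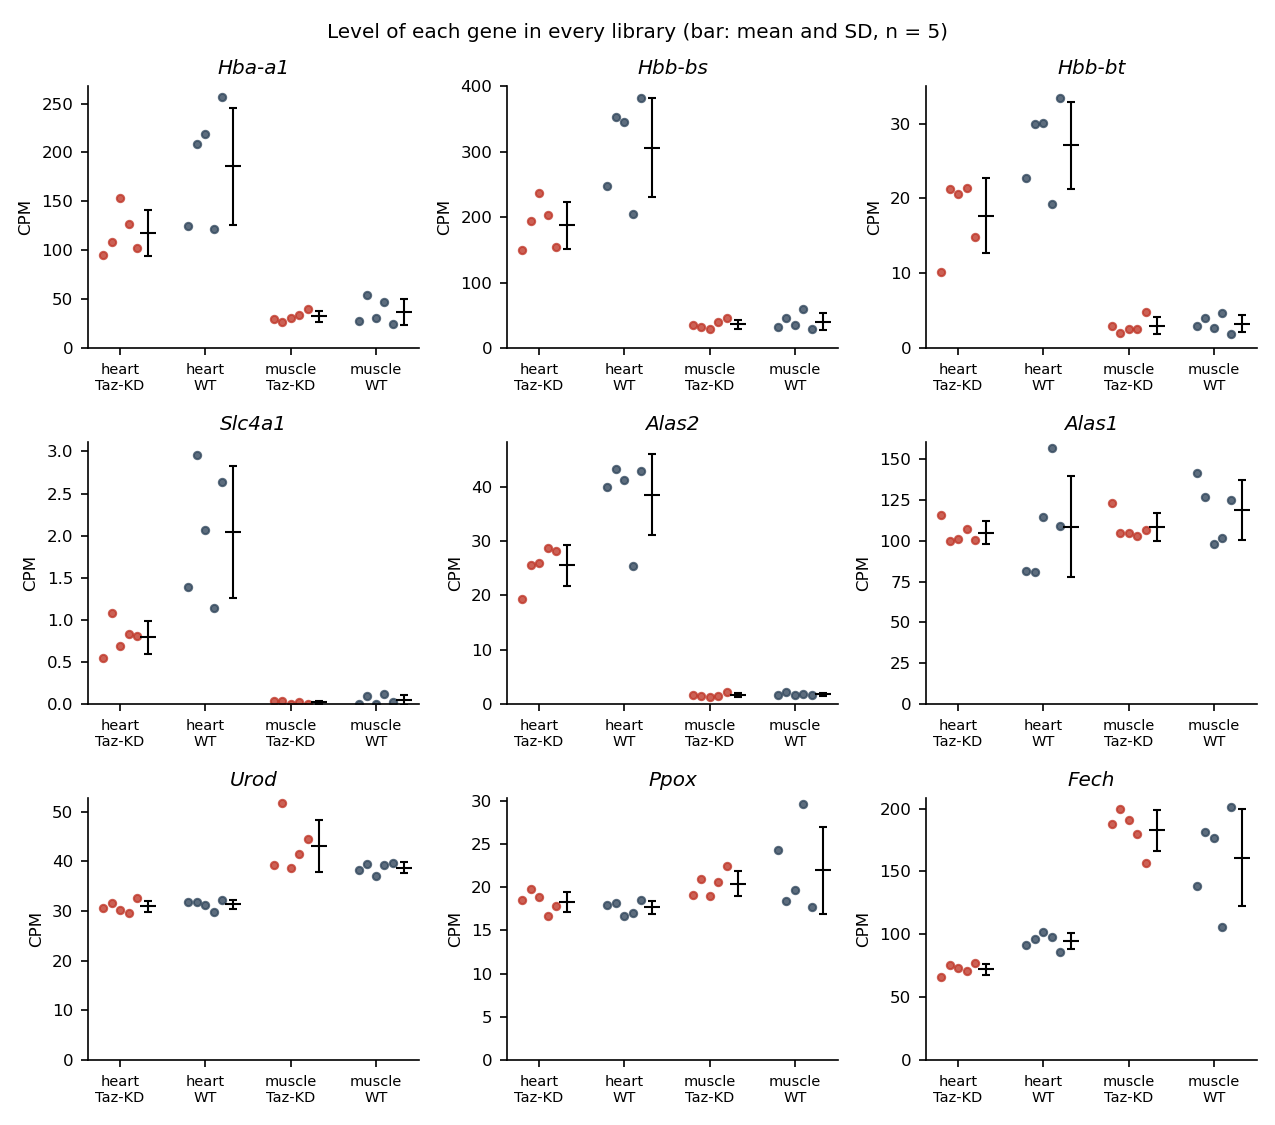
Level of the 9 genes in every library, in CPM on axes that start at 0, with Taz-KD in red and WT in dark blue for heart and muscle. Points are libraries, and the black bar is the mean with its SD (n = 5). In heart, all Taz-KD values of Slc4a1 and Fech lie below all WT values, while the globin values overlap.

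Hbb-bs, the more abundant beta globin, measured 155, 149, 194, 237 and 204 CPM in Taz-KD hearts R2, R1793, R1796, R1797 and R1798, against 382, 248, 352, 345 and 204 CPM in WT hearts R3, R1791, R1792, R1795 and R1800. In WT, 4 of the 5 hearts lay above every Taz-KD heart, and R1800 lay among the Taz-KD hearts. Its log2 fold change was −0.71 ± 0.19 (SE, edgeR adjusted p = 0.0177). Without R2 and R3 the log2 fold change of Hbb-bs was −0.55 and its edgeR adjusted p was 0.0796, and with no filter on low counts the adjusted p was 0.0572.

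Hba-a1, an alpha globin, had 102, 94.8, 108.5, 153 and 127 CPM in the same order of Taz-KD hearts, against 256, 125, 208, 218 and 122 CPM in WT hearts. WT R1791 and R1800 overlapped the Taz-KD range and the other 3 WT hearts lay above it. The log2 fold change of −0.67 ± 0.23 did not pass (edgeR adjusted p = 0.0569), with a 95% interval of −1.17 to −0.16. With Hba-a1 and Hba-a2 counted as 1 feature, an alternative chosen after seeing the data, it was −0.71 with an edgeR adjusted p of 0.0150. Hba-a1 alone passed without R1797, R1791 or R1800 (edgeR adjusted p = 0.0388, 0.0285 and 0.0244).

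Hbb-bt, the minor beta globin copy, had 14.9, 10.2, 21.3, 20.6 and 21.4 CPM in Taz-KD hearts, against 33.4, 22.7, 29.9, 30.0 and 19.3 CPM in WT hearts. Only WT R1800 lay within the Taz-KD range. Its log2 fold change was −0.61 ± 0.22 (edgeR adjusted p = 0.0647), with an interval of −1.1 to −0.13, and it passed without R1800 (edgeR adjusted p = 0.0402). The other alpha copy, Hba-a2, fell to 21.8 ± 6.76 CPM in Taz-KD hearts, against 42.0 ± 15.1 CPM in WT hearts (log2 fold change −0.95 ± 0.28, edgeR adjusted p = 0.0327). Hba-a2 did not pass without R2, R1793, R1797, R1798, R1791, R1792 or R1800 (edgeR adjusted p = 0.0521 to 0.0732). The embryonic globins Hba-x, Hbb-y, Hbb-bh1 and Hbb-bh2 had 0 counts in every heart library.

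Summed over Hba-a1, Hba-a2, Hbb-bs and Hbb-bt, globins came to 344.2 ± 66.2 CPM in Taz-KD hearts and 561.2 ± 137 CPM in WT hearts (SD, n = 5 each). This was 0.0274% to 0.0454% of all counts in Taz-KD hearts and 0.0379% to 0.0754% in WT hearts. Globin mRNA was a small part of every library.

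Slc4a1, the band 3 gene, had the largest change of the 9 in heart, at low counts. The libraries held 26, 18, 37, 22 and 27 counts in Taz-KD hearts, against 82, 37, 86, 59 and 33 counts in WT hearts. In CPM these were 0.808, 0.550, 1.08, 0.691 and 0.833 in Taz-KD hearts and 2.64, 1.39, 2.96, 2.07 and 1.15 in WT hearts. Every Taz-KD heart lay below every WT heart, a pattern found for 7.05% of all genes tested. The log2 fold change was −1.36 ± 0.28 (edgeR adjusted p = 0.0037).

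Alas2, the red cell form of the first heme enzyme, had 28.2, 19.3, 25.6, 26.0 and 28.8 CPM in Taz-KD hearts, against 42.9, 39.9, 43.2, 41.2 and 25.4 CPM in WT hearts. In WT, 4 hearts lay above all Taz-KD hearts, and R1800, low also in globins, lay among the Taz-KD hearts. Alas2 fell by 0.59 on the log2 scale (SE 0.15, edgeR adjusted p = 0.0134). With the log2 level of Hbb-bs in the fit as a covariate, its log2 fold change was −0.18 (edgeR adjusted p = 0.591). The count of reads from Alas2 may include overlapping Apex2 and Mir3620 on the other strand, since the strand setting of the counting is not given in the sources used here.

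Alas1, the form used in tissues generally, had the highest mean level per kilobase of the heme synthesis genes in heart. It measured 100.5, 116, 99.8, 101 and 108 CPM in Taz-KD hearts, against 109, 81.6, 81.1, 115 and 157 CPM in WT hearts. Taz-KD hearts lay inside the WT range, which WT R1800 widened at its upper end. Its log2 fold change was −0.05, with an interval of −0.40 to 0.31 (edgeR adjusted p = 0.862), and it was 0.12 without R1800.

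Urod, which removes the carboxyl groups of uroporphyrinogen, averaged 30.9 ± 1.18 CPM in Taz-KD hearts and 31.4 ± 0.91 CPM in WT hearts. The interval of its log2 fold change ran from −0.13 to 0.09 (edgeR adjusted p = 0.819). Ppox, which makes protoporphyrin, averaged 18.3 ± 1.17 CPM in Taz-KD hearts and 17.7 ± 0.77 CPM in WT hearts, with an interval of −0.09 to 0.20 (edgeR adjusted p = 0.600). The libraries of the genotypes overlapped for both genes.

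Fech, ferrochelatase, measured 77.0, 65.9, 75.3, 73.0 and 70.4 CPM in Taz-KD hearts, against 85.9, 91.6, 96.5, 102 and 97.6 CPM in WT hearts. All Taz-KD hearts lay below all WT hearts, as for 7.05% of all genes tested. The log2 fold change was −0.39 ± 0.06 (edgeR adjusted p = 0.000735). With Hbb-bs as a covariate Fech still passed (−0.40, edgeR adjusted p = 0.0284), and in 1 fit of all 20 libraries it did not (−0.42, edgeR adjusted p = 0.0742).

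The other 3 enzymes of the pathway analysed here did not move one way. Alad, which joins 2 aminolevulinate molecules, fell to 17.5 ± 1.65 CPM in Taz-KD hearts, against 23.2 ± 1.26 CPM in WT hearts (log2 fold change −0.41 ± 0.07, edgeR adjusted p = 0.0017). Cpox, which acts before Ppox, rose to 51.5 ± 9.74 CPM in Taz-KD hearts, against 38.6 ± 4.69 CPM in WT hearts (log2 fold change 0.42 ± 0.12, edgeR adjusted p = 0.0284). Uros, which closes the ring, averaged 14.2 ± 1.83 CPM in Taz-KD hearts and 15.3 ± 1.74 CPM in WT hearts and did not pass (edgeR adjusted p = 0.519). Of these 8 heme synthesis genes, 3 fell, 1 rose and 4 did not pass, with a median log2 fold change of −0.08. Over all genes tested in heart, 10.3% were lower and 14.4% higher in Taz-KD. With Hbb-bs as a covariate Alad (−0.29, edgeR adjusted p = 0.129) and Cpox (0.35, edgeR adjusted p = 0.335) lost their calls, as they did in 1 fit of all 20 libraries (−0.44 and 0.39, edgeR adjusted p = 0.0537 and 0.283). Cpox also did not pass without R1793, R1796, R3, R1791 or R1800 (edgeR adjusted p = 0.0556 to 0.0646).

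**Figure D2:**
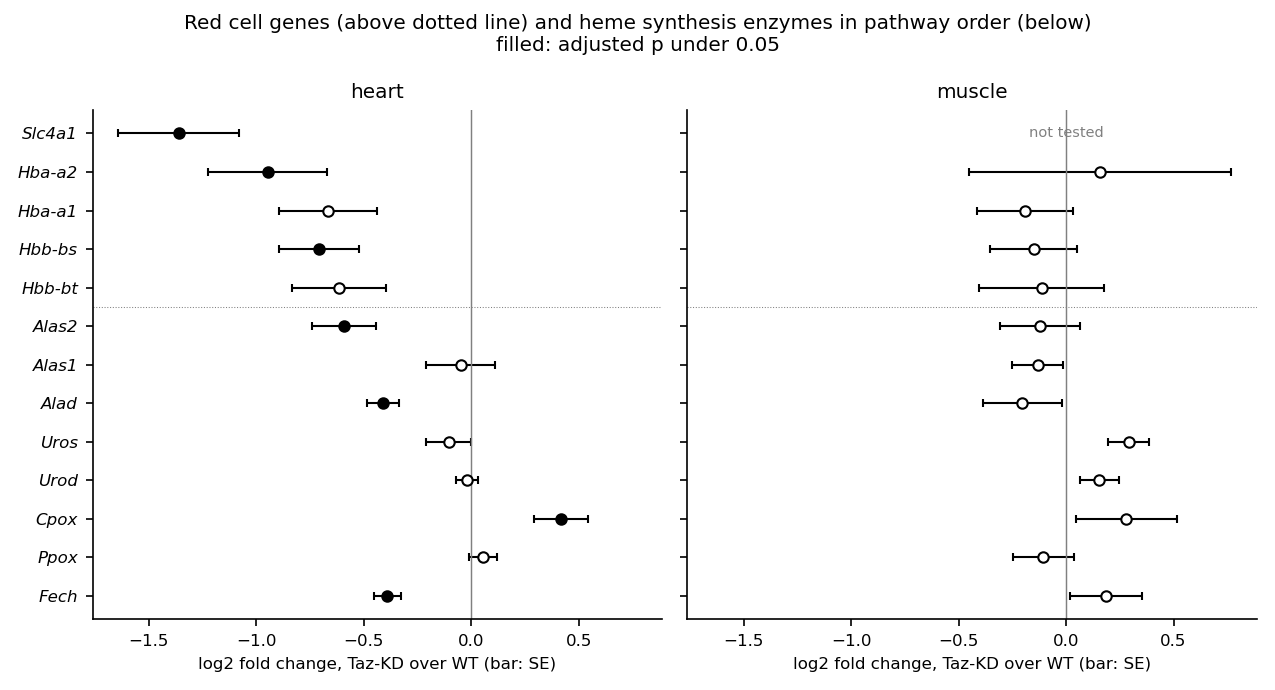
Log2 fold change of Taz-KD over WT with its SE for red cell genes and for heme synthesis enzymes in the order of the pathway, in heart (left) and muscle (right). Filled points passed an edgeR adjusted p of 0.05: 7 of 13 genes in heart and 0 of 12 in muscle, where Slc4a1 had too few counts to be tested.

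Among other genes known from red cells, few were tested and they did not move one way. In WT mice the means of Bpgm, Tmcc2 and Ank1 were 15.7, 35.9 and 153.1 CPM in heart. They were 103.1, 71.9 and 271 CPM in muscle, whereas Hbb-bs had 306.2 CPM in heart and 40.2 CPM in muscle. Tal1, Epb41, Sptb, Gypc and Dmtn, also tested in both tissues, had higher WT means in heart. The cells that these transcripts come from were not tested. Bpgm, which makes the red cell metabolite 2,3-bisphosphoglycerate, fell by 0.29 on the log2 scale (edgeR adjusted p = 0.0416). Bpgm did not pass when 1 of R1793, R1796, R1797, R1798, R3, R1792, R1795 or R1800 was left out (edgeR adjusted p = 0.0514 to 0.111). Of 11 erythroid genes in the table only 3 were tested, of which Bpgm fell and 2 did not pass (Tal1 at −0.28 and Tmcc2 at −0.27 on the log2 scale). The factors Klf1 and Gata1 had at most 0.338 CPM in any heart, Hemgn at most 0.0689 CPM, and Car1 was at 0 throughout.

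Rhd, a blood group protein gene, rose, and measured 5.06 to 6.22 CPM in Taz-KD hearts and 2.29 to 3.27 CPM in WT hearts (log2 fold change 1.03 ± 0.12, edgeR adjusted p = 5.64e-05). All Taz-KD hearts lay above all WT hearts, as for 11.3% of all genes tested. In 1 fit of all 20 libraries Rhd did not pass (1.0, edgeR adjusted p = 0.0568). Epb41, the membrane protein 4.1 gene that many tissues express, rose by 0.35 on the log2 scale (edgeR adjusted p = 0.0191, and 0.0862 without R2 and R3). Of the 6 other membrane genes tested in heart, 2 rose (Rhd and Epb41) and 0 fell, beside 14.4% higher and 10.3% lower over all genes tested. The spectrin and anchor genes Sptb and Ank1, the glycophorin Gypc and the actin-bundling Dmtn did not pass (log2 fold changes of 0.04, −0.28, 0.12 and −0.17), and Epb42, Rhag, Kel, Ermap and Add2 had too few counts.

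**Figure D3:**
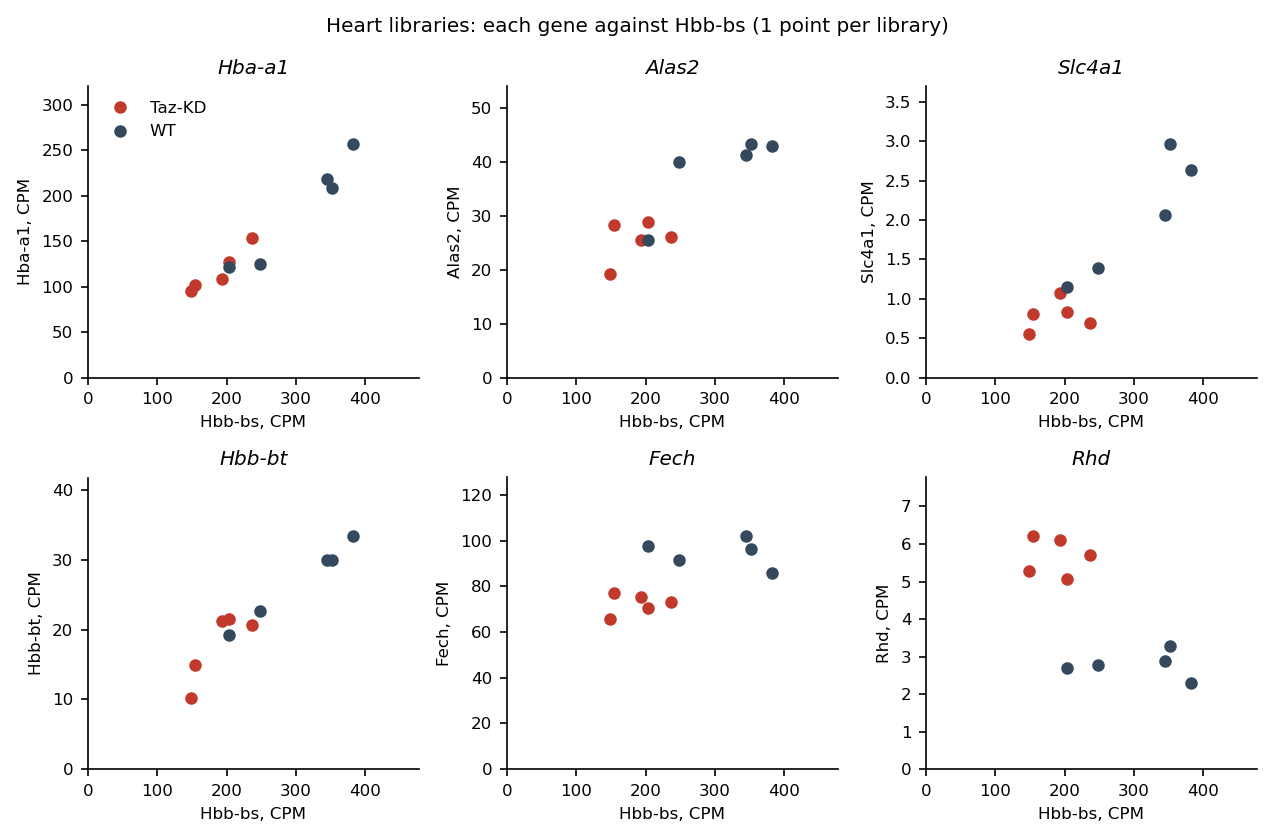
Heart libraries, 1 point each, with the CPM of 6 genes (vertical) against the CPM of Hbb-bs (horizontal), Taz-KD in red and WT in dark blue. Hba-a1 and Hbb-bt climb with Hbb-bs, whereas the genotypes do not overlap in Slc4a1, Fech and Rhd.

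Across the 10 hearts, deviations of log2 CPM from the genotype mean were compared with those of Hbb-bs. Pearson's r was 0.955 for Hba-a1, 0.874 for Hbb-bt, 0.759 for Slc4a1 and 0.727 for Alas2. It was 0.129 for Urod, 0.225 for Ppox, −0.04 for Fech and −0.06 for Rhd. Hba-a2, the other alpha copy, gave 0.00982, and the endothelial gene Pecam1 gave 0.627. Alas1 gave −0.40 with Hbb-bs and −0.73 with Alas2 in heart, whereas it gave 0.14 with Alas2 across the 10 muscles. WT R1800 and Taz-KD R1793 each had the highest Alas1 and the lowest Alas2 among the hearts of their genotype. In heart, Fech gave 0.839 with Mb. These are descriptions over 10 libraries that share a scaling, and no test was made. The genes most like Hba-a1 by this measure were Tent5c (0.969), Amigo3 (0.966), Rab33b (0.952), Gm22596 (0.947) and St6gal1 (0.937). For Slc4a1 they were Gm12095 (0.918), Ogfod2 (0.914), Gm16304 (0.911), Mir99a (0.908) and Spty2d1 (0.901). For Alas1 they were Sf3a1 (0.967), Dnah2 (0.952), Cited4 (0.952), Duox1 (0.950) and Dtl (0.945). Across the 10 muscles they were Rab23 (0.937), 2310014F06Rik (0.934), Nckap5 (0.932), Anapc7 (0.925) and Plpp1 (0.922) for Hba-a1, and Kmt2b (0.955), Rgs9bp (0.951), Dop1a (0.945), Inpp5b (0.940) and Casc3 (0.939) for Alas1.

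Ratios of counts within a library do not depend on the scaling of libraries, and are not corrected for gene length. Counts of Alas2 were 11.0% to 18.2% of those of Hbb-bs in Taz-KD hearts and 11.2% to 16.1% in WT hearts, and these ranges overlapped. Slc4a1 was 0.292% to 0.557% of Hbb-bs in Taz-KD hearts and 0.561% to 0.841% in WT hearts, and the ranges did not overlap, by a narrow margin. The counts of Hbb-bt were 6.84% to 11.0% of those of Hbb-bs in Taz-KD hearts and 8.5% to 9.45% in WT hearts. Hba-a2 varied more against its copy, at 13.6% to 29.3% of Hba-a1 in Taz-KD hearts and 10.2% to 41.4% in WT hearts.

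**Figure D4:**
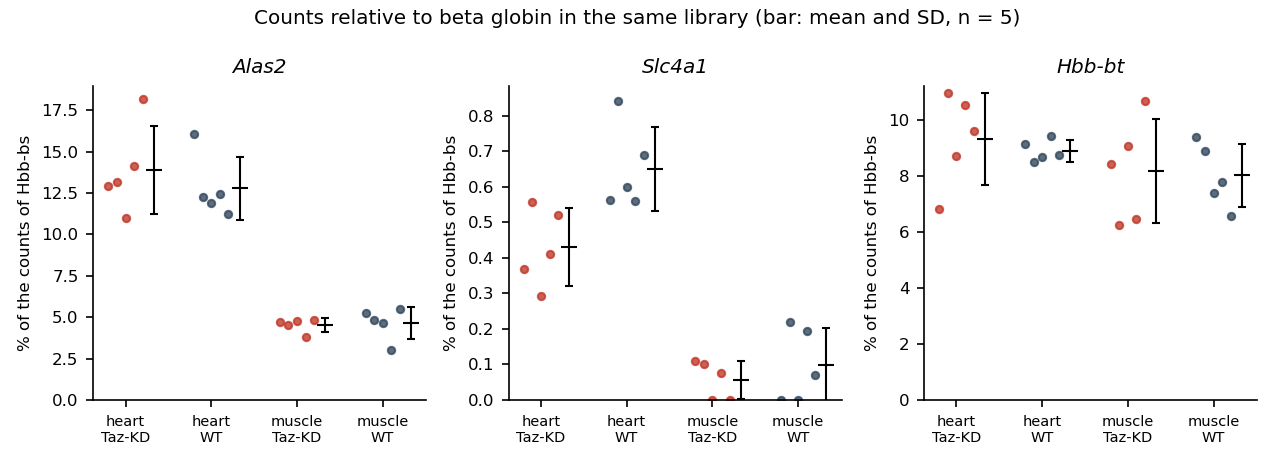
Counts of Alas2, Slc4a1 and Hbb-bt as a percentage of the counts of Hbb-bs in the same library, for Taz-KD (red) and WT (dark blue) in heart and muscle, with the mean and SD (n = 5). The Alas2 percentage is at least 11.0 in every heart and at most 5.52 in every muscle, and the Hbb-bt percentage lies between 6.25 and 11.0 in all 20 libraries.

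Markers of other cells that come with blood or vessels also moved in heart, where 10.3% of all genes tested fell and 14.4% rose. Of 5 platelet genes tested, Ppbp (log2 fold change −1.6, edgeR adjusted p = 0.0061) and Gp1ba (−0.70, edgeR adjusted p = 0.0031) fell. Ppbp did so at low counts, 9 to 20 in Taz-KD hearts and 19 to 71 in WT hearts. The list of 8 platelet genes summed to 13.0 to 14.3 CPM in Taz-KD hearts and 15.7 to 21.6 CPM in WT hearts. Neutrophil markers summed to 0.962 to 2.16 CPM in Taz-KD hearts and 0.520 to 2.67 CPM in WT hearts, and those of B cells to 1.09 to 2.19 CPM in Taz-KD hearts and 1.75 to 2.25 CPM in WT hearts. T cell markers summed to 1.04 to 1.44 CPM in Taz-KD hearts and 1.69 to 2.29 CPM in WT hearts. In this sum of low levels all Taz-KD hearts lay below all WT hearts, as for 7.05% of all genes tested. Only 2 T cell genes were tested, neither passed, and both overlapped between genotypes. Bone marrow progenitor markers summed to 7.28 to 9.42 CPM in Taz-KD hearts and 7.0 to 14.8 CPM in WT hearts. Nearly all of it was Kit (8.34 ± 0.88 CPM in Taz-KD hearts and 10.5 ± 2.83 CPM in WT hearts). Elane, Mpo, Prtn3 and Ctsg had at most 0.2255 CPM in any heart. The most abundant genes of the platelet, neutrophil, B cell, T cell, progenitor and endothelial lists were Pf4, Mmp9, Cd79a, Cd4, Kit and Cdh5, and none of these passed (log2 fold change −0.74 and edgeR adjusted p = 0.0789 for Cd4). Of the 5 endothelial genes Pecam1 (−0.33, edgeR adjusted p = 0.0037), Tek (−0.20, edgeR adjusted p = 0.0083) and Emcn (−0.24, edgeR adjusted p = 0.0342) fell, with sums of 554 to 671.8 CPM in Taz-KD hearts and 654.4 to 813.1 CPM in WT hearts. Emcn did not pass without R2, R1797, R1798, R3, R1791, R1792 or R1795 (edgeR adjusted p = 0.0594 to 0.0759). Their part in the globin differences was not tested.

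Among genes that use, carry or break down heme, changes went both ways, while 24.6% of all genes tested in heart passed. Mb, myoglobin, the hemoprotein of the list with the highest level per kilobase, fell to 2562 ± 332 CPM in Taz-KD hearts, against 4755 ± 590 CPM in WT hearts (log2 fold change −0.89 ± 0.11, edgeR adjusted p = 0.000104). In 1 fit of all 20 libraries Mb did not pass (−0.92, edgeR adjusted p = 0.238). Catalase (Cat) rose to 322 ± 17.7 CPM in Taz-KD hearts, against 194 ± 21.4 CPM in WT hearts, and the outer mitochondrial cytochrome Cyb5b rose to 99.3 ± 9.79 CPM in Taz-KD hearts, against 65.4 ± 2.32 CPM in WT hearts (edgeR adjusted p = 3.91e-05 and 5.5e-05). The constitutive heme oxygenase Hmox2 rose by 0.37 and the biliverdin reductase Blvra by 0.30 on the log2 scale (edgeR adjusted p = 0.000514 and 0.0314), and Hmox1, the inducible heme oxygenase, had a log2 fold change of 0.45 (edgeR adjusted p = 0.0528). Blvra did not pass without R1793, R1796, R3, R1792, R1795 or R1800 (edgeR adjusted p = 0.0533 to 0.0785), and Hmox1 passed without R1793, R1798 or R1792 (edgeR adjusted p = 0.0402, 0.0202 and 0.043). Of 12 genes of heme supply and transport only Slc48a1, a heme transporter, passed (0.29, edgeR adjusted p = 0.0084), and of the 3 that make heme a and join heme to cytochrome c none did. The most abundant genes per kilobase of these lists, Tmem14c and Cox10, had log2 fold changes of 0.03 and 0.01.

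Iron genes as a list were near the share of all genes. Of 11 iron handling genes tested 2 rose and 1 fell, beside the 24.6% of all genes that passed in heart. The ferritin heavy chain gene Fth1 rose to 843.3 ± 64.2 CPM in Taz-KD hearts, against 617.8 ± 28.1 CPM in WT hearts (edgeR adjusted p = 0.000516). Hfe, the hemochromatosis gene that regulates iron uptake, rose by 0.29 and Steap4, a metalloreductase, fell by 0.31 on the log2 scale (edgeR adjusted p = 0.0389 and 0.0327). With 1 heart left out, Hfe still passed only without R1798 or R3 (otherwise edgeR adjusted p = 0.0606 to 0.095), and Steap4 did not pass without R2, R1797, R1798, R3 or R1795 (edgeR adjusted p = 0.0603 to 0.0844). Tfrc, the transferrin receptor that takes up iron, spread from 32.0 to 138 CPM in Taz-KD hearts and from 38.8 to 128 CPM in WT hearts (edgeR adjusted p = 0.872). The heme-binding repressor Bach1 fell by 0.37 on the log2 scale (edgeR adjusted p = 0.0039). Eif2ak1, the heme-regulated kinase of the integrated stress response, rose by 0.25 (edgeR adjusted p = 0.0113, and 0.0577 without R2 and R3). Of the genes that control Alas1 in that list, among them Nr1d1, Ppargc1a, Nrf1 and Foxo1, none of these 4 passed, nor did Nr1d2, the most abundant gene of the list (edgeR adjusted p = 0.538).

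Of 12 genes that build iron-sulfur clusters, another use of iron in mitochondria, 3 rose and 1 fell in heart. The shares over all genes tested in heart were 14.4% higher and 10.3% lower in Taz-KD. Hspa9, a mitochondrial chaperone that takes part in the transfer of clusters and in protein import, rose to 1346 ± 100.5 CPM in Taz-KD hearts, against 521 ± 43.9 CPM in WT hearts, with no overlap (log2 fold change 1.37 ± 0.08, edgeR adjusted p = 1.91e-07). Lyrm4, a partner of the cysteine desulfurase, rose by 0.45 and the ferredoxin reductase Fdxr by 0.38 on the log2 scale (edgeR adjusted p = 0.0054 and 0.0149). Fdxr did not pass without R2 and R3 (edgeR adjusted p = 0.0635). Nfs1, the cysteine desulfurase, fell by 0.21 on the log2 scale (edgeR adjusted p = 0.0497). With 1 heart left out, Nfs1 still passed only without R1796 or R3 (otherwise edgeR adjusted p = 0.060 to 0.126).

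In muscle, globin and heme synthesis transcripts overlapped between the genotypes. Of the 9 genes 8 were tested and 0 passed with edgeR, with 0 of them at an unadjusted p under 0.05, and 0 passed with DESeq2 or limma-voom. Only 0.0186% of the 16145 genes tested in muscle passed, with 0.0124% higher and 0.00619% lower in Taz-KD, and 14.9% had an unadjusted p under 0.05. None of the 8 had libraries of the genotypes that did not overlap, beside 2.14% of all genes tested (1.06% with Taz-KD above and 1.08% with Taz-KD below). The median log2 fold change of the 8 genes was −0.12, beside −0.02 over all genes tested.

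Hbb-bs measured 35.7, 32.1, 28.4, 39.4 and 45.5 CPM in Taz-KD muscles A34, A39, A52, A56 and A58, against 31.5, 45.2, 35.2, 59.9 and 29.4 CPM in WT muscles A33, A40, A51, A55 and A57. Hba-a1 had 29.2, 26.4, 31.2, 34.3 and 40.3 CPM in Taz-KD muscles, against 27.4, 54.2, 30.9, 47.3 and 24.4 CPM in WT muscles. The genotypes overlapped for both genes, with WT A40 and A55 highest. The lowest Hbb-bs value was that of Taz-KD A52, just below the lowest WT muscle, and for Hba-a1 all Taz-KD muscles lay inside the WT range. The log2 fold changes were −0.15, with an interval of −0.60 to 0.29, for Hbb-bs and −0.19, with an interval of −0.68 to 0.30, for Hba-a1 (edgeR adjusted p = 0.700 and 0.655).

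Hbb-bt averaged 3.0 ± 1.1 CPM in Taz-KD muscle and 3.24 ± 1.1 CPM in WT muscle (edgeR adjusted p = 0.850). Hba-a2 ran from 0.682 to 6.13 CPM in Taz-KD muscle, with A56 highest, and from 0.531 to 4.26 CPM in WT muscle (edgeR adjusted p = 0.903). Globins summed to 73.9 ± 13.2 CPM in Taz-KD muscle and 82.5 ± 25.9 CPM in WT muscle. Slc4a1 had 2, 2, 0, 2 and 0 counts in Taz-KD muscles, against 0, 6, 0, 5 and 1 counts in WT muscles, too few for a test. A difference in Slc4a1 was therefore not detectable at this depth.

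Alas2 averaged 1.64 ± 0.33 CPM in Taz-KD muscle and 1.78 ± 0.23 CPM in WT muscle (log2 fold change −0.12, edgeR adjusted p = 0.742). Alas1 measured 123, 105, 105, 103 and 107 CPM in Taz-KD muscles, against 142, 127, 98.4, 102 and 125 CPM in WT muscles, with an interval of the log2 fold change from −0.39 to 0.13 (edgeR adjusted p = 0.567). Urod averaged 43.1 ± 5.31 CPM in Taz-KD muscle and 38.8 ± 1.13 CPM in WT muscle, and Ppox 20.4 ± 1.45 CPM in Taz-KD muscle and 22.0 ± 5.03 CPM in WT muscle (edgeR adjusted p = 0.422 and 0.697). The libraries of the genotypes overlapped for all of these enzymes.

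Fech had 188, 199.5, 191, 179.5 and 157 CPM in Taz-KD muscles, against 138, 182, 177, 105 and 202 CPM in WT muscles. The low WT values were those of A33 and A55, the libraries that stood apart above. Its log2 fold change was 0.18, with an interval of −0.18 to 0.55 (edgeR adjusted p = 0.568), and −0.03 without A33 and A55. Ppox was highest in the same A33 and A55, at 24.4 and 29.7 CPM, and over the 10 muscles the deviations of Ppox and Fech from their genotype means gave r = −0.96. Among the other enzymes, Uros had the smallest p, with 20.4 ± 1.16 CPM in Taz-KD muscle and 16.6 ± 2.04 CPM in WT muscle (unadjusted p = 0.0108, edgeR adjusted p = 0.311). Cpox averaged 34.1 ± 2.56 CPM in Taz-KD muscle and 28.1 ± 9.53 CPM in WT muscle (edgeR adjusted p = 0.540). Mb ran from 201.4 to 1590 CPM in Taz-KD muscle and from 1100 to 5166 CPM in WT muscle (edgeR adjusted p = 0.328).

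The genotype difference was then compared between tissues, as heart minus muscle in 1 fit of all 20 libraries. Of the 9 genes 0 passed, with 4 of them at an unadjusted p under 0.05, beside 4.62% of 20612 genes that passed and 19.7% at an unadjusted p under 0.05. For Slc4a1 this test could not decide, since muscle held too few counts (difference −0.26 ± 1.46). Fech came nearest, with a difference of −0.63 ± 0.20 (edgeR adjusted p = 0.0837). It passed with DESeq2 (−0.65, DESeq2 adjusted p = 0.0332), with library totals as the only scaling (−0.47, edgeR adjusted p = 0.0290) and without A57 (−0.70, edgeR adjusted p = 0.0146). The difference was −0.61 ± 0.28 for Hbb-bs (edgeR adjusted p = 0.234), −0.53 ± 0.22 for Alas2 (edgeR adjusted p = 0.187), −0.24 ± 0.11 for Urod (edgeR adjusted p = 0.209), −0.53 ± 0.33 for Hba-a1 (edgeR adjusted p = 0.390) and 0.01 ± 0.20 for Alas1 (edgeR adjusted p = 0.9999). The falls in heart were thus not shown to differ from the values in muscle at this threshold.

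The levels of the genes themselves were ordered per kilobase of exon. In WT hearts, Hbb-bs led with 398.7 ± 99.3 CPM per kilobase, followed by Hba-a1 (228.9 ± 73.9), Hbb-bt (38.5 ± 8.34), Alas1 (17.6 ± 5.02), Alas2 (16.0 ± 3.1), Urod (12.1 ± 0.35), Fech (6.85 ± 0.45), Ppox (3.91 ± 0.17) and Slc4a1 (0.417 ± 0.16). Neighbours that overlapped in WT hearts were Hbb-bs with Hba-a1, Alas1 with Alas2, and Alas2 with Urod. In Taz-KD hearts the order was alike except that Urod (11.9 ± 0.45 CPM per kilobase) stood above Alas2 (10.6 ± 1.57), and these overlapped. In WT muscle Hbb-bs had 52.4 ± 16.4 CPM per kilobase and Hba-a1 45.4 ± 16.2, ahead of Alas1 (19.2 ± 2.96), Urod (14.96 ± 0.44) and Fech (11.6 ± 2.78). Alas2 came eighth of the 9 there, at 0.739 ± 0.10 CPM per kilobase.

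Between tissues, the genes of red cells and the genes of the tissues' own heme synthesis went apart in WT mice. The heart over muscle ratio of mean CPM was 5.04 for Hba-a1, 7.61 for Hbb-bs, 8.35 for Hbb-bt and 21.7 for Alas2. For Slc4a1 it was 43.0, with very few counts in muscle. It was 0.914 for Alas1, 0.809 for Urod, 0.804 for Ppox and 0.589 for Fech. Per kilobase, the level of Alas1 was 18.9 to 29.9 times that of Alas2 in Taz-KD muscle and 22.0 to 33.5 times in WT muscle, beside 1.39 to 2.35 times in Taz-KD hearts and 0.730 to 2.40 times in WT hearts. Against Hbb-bs, Alas2 counts were 3.78% to 4.83% in Taz-KD muscle and 3.01% to 5.52% in WT muscle, below the share in every heart. The ratio of Alas2 to Hbb-bs thus differed between tissues with no overlap, while that of Hbb-bt overlapped, at 6.25% to 10.7% of Hbb-bs in Taz-KD muscle and 6.59% to 9.42% in WT muscle. Counts of Slc4a1 against Hbb-bs did not overlap either (0% to 0.22% in muscle, 0.292% to 0.841% in heart), with very few counts in muscle. Nor did those of Hbb-bs against Hba-a1 (83.3% to 126.6% in muscle, 149.1% to 198.6% in heart). Hba-a2 against Hba-a1 overlapped (0.978% to 17.9% in muscle, 10.2% to 41.4% in heart). Heart and muscle libraries also differed in Rn7sk, so tissue and library type cannot be told apart in these ratios.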

How the data were processed

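Per the labels, total RNA of frozen heart and femur muscle was depleted of ribosomal RNA and made into strand-marked libraries, sequenced as 150 bp paired ends; Rn7sk, which has no poly(A) tail, was near 0 in muscle only, which goes against this description of the muscle libraries. The authors mapped reads with STAR (default settings) to mm10, GRCm38, and summed them by gene in featureCounts 1.6.4; the deposited values are these unnormalized counts. Their own tests used DESeq2 2.11.40.6. For annotation release and strand setting, no value is given in the sources used here. All columns were matched to a sample by its label, and 0 were left out.

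Each tissue was analysed in R 4.3.3 with edgeR 4.0.16: filterByExpr, TMM factors, robust dispersion and the quasi-likelihood test, with Benjamini-Hochberg adjustment over all genes tested at 0.05. SEs follow from the F statistic. The tissue difference was the interaction in 1 fit of 20 libraries. DESeq2 1.42.0 and limma-voom (limma 3.58.1), other scalings and filters, a Hbb-bs covariate and leaving out libraries were alternatives. Symbols came from GENCODE M21, and promoter sequences from RefSeq (GRCm38.p6).

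On simulated counts, the heart test found 82 of 94 genes with a 3-fold difference and 38 of 100 with a 1.5-fold one (19314 genes), and the muscle test 63 of 98 and 14 of 95 (15961 genes).

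The 9 genes and the 21 gene lists were chosen with earlier results of these data known. The text names all 9 genes and Taz, the other heme synthesis, globin, red cell membrane and erythroid genes by role, and from every other list up to 4 genes past the test by smallest adjusted p and its most abundant gene in heart; Tfrc, Hmox1 and the Alas1 regulators that did not pass were named after their values were seen. Some genes of these lists are not reported here and were left out of the list counts. Likeness is Pearson's r of deviations of log2 CPM from the genotype mean. The authors speak of WT littermates where they report body weight, and how the mice sequenced here were related is not given. Each p-value sets the genotype difference against the spread between these mice.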

Additional observations from a re-analysis of the deposited data

Results flagged for a closer look

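Of 108 groups of 5 libraries checked, 8 held a library farther from the rest than Dixon's 95% limit allows, and chance gives about 1 in 20. Alas2 was at 25.4 CPM in WT heart R1800, against 39.9 CPM in the nearest WT heart. In the same heart Emcn was at 27.5 CPM, against 32.0 CPM in the nearest WT heart. Pecam1 was at 149.9 CPM in Taz-KD heart R1797, against 128.9 CPM in the nearest Taz-KD heart. Acta1 was at 1493 CPM in Taz-KD heart R1793, against 677.3 CPM in the nearest Taz-KD heart. Hmox2 was at 37.5 CPM in WT heart R1792, against 40.9 CPM in the nearest WT heart. In Taz-KD muscle, Alas1 was at 123 CPM in A34 against 107 CPM in the nearest, Hba-a2 at 6.13 CPM in A56 against 1.88 CPM, and Taz at 15.2 CPM in A58 against 13.4 CPM. No gene of the 9 had a genotype difference that passed the test of heart against muscle, which could not decide for Slc4a1 at its muscle counts.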

How the results depend on the processing

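Of the 9 genes, 4 passed in heart, and between 4 and 6 when 1 heart was left out; among the 5 heme synthesis genes of the 9 that could be fitted with Hbb-bs as a covariate, 1 passed (Fech). In muscle 0 passed under every alternative run. For the difference between tissues the count of 0 became 1 (Fech) with DESeq2 and with library totals, and ranged from 0 to 1 when 1 library was left out (1 without A57). Hba-a1 in heart passed with DESeq2, upper-quartile factors and no robust dispersion, and Hbb-bt with DESeq2 and limma-voom. In 1 fit of all 20 libraries Alad, Cpox, Hba-a2, Rhd, Epb41, Bpgm, Mb, Blvra, Bach1, Eif2ak1, Fdxr, Nfs1, Steap4, Hfe, Pecam1, Tek and Emcn kept their direction but no longer passed in heart (edgeR adjusted p = 0.0537 to 0.473). Values near 0 changed sign as follows, on the log2 scale. Urod in heart was 0.000401 with no filter. Leaving out 1 library, Alas1 in heart ran from −0.14 to 0.12, and Tfrc from −0.53 to 0.14 (0.12 without R2 and R3). In muscle Hba-a1 ran from −0.31 to 0.00203, Hbb-bs from −0.25 to 0.0365, Hbb-bt from −0.35 to 0.0544, Ppox from −0.17 to 0.026 and Hba-a2 from −0.55 to 0.56. Hba-a2 in muscle was −0.027 with library totals. Without A33 and A55, chosen after seeing the data, Hbb-bt in muscle was 0.0579, Ppox 0.13 and Fech −0.0332, and the difference for Ppox was −0.0925. For the difference, Alas1 was −0.0084 with DESeq2 and with median-ratio factors and ran from −0.0832 to 0.19 when 1 library was left out, and Slc4a1 ran from −0.79 to 0.0761. The cause of these changes was not tested. No paired analysis was possible because the sample codes are not shared between groups. Depth limits Slc4a1 in muscle, with 18 counts over 10 libraries, and reads shared by globin copies limit each copy.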
